A study of Homo sapiens with 21 samples.

Results

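Aquaporins and glycerol-handling genes, 6 of the 37637 features listed, were followed across 7 caffeine doses in HepG2, a human hepatocellular carcinoma cell line. They were AQP3, AQP7, AQP9 and AQP11, which encode membrane channels, and GK and GPD1, which encode enzymes of glycerol 3-phosphate. They were found by symbol and were chosen by their read counts across the doses, with the differences from control known, so their levels by dose are given as a description and not as test results. Control cells received serum-free DMEM without caffeine for 24 h, and the others received 0.01, 0.1, 1, 10, 100 or 1000 µM caffeine in the same medium for 24 h. Each of the 7 groups had 3 biological replicates, which gives 21 libraries of poly(A)-selected RNA. All groups share the serum withdrawal and the single cell line.

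Aquaporins are channels that let water cross membranes, and the aquaglyceroporins among them, AQP3, AQP7, AQP9 and AQP10, also pass glycerol. AQP9 is the main glycerol channel of the hepatocyte surface, AQP7 is best known in fat cells, AQP3 in skin and kidney, and AQP11 is an unusual member found in intracellular membranes. Glycerol that has entered a liver cell is phosphorylated by glycerol kinase (GK). Cytosolic glycerol 3-phosphate dehydrogenase (GPD1) interconverts glycerol 3-phosphate and dihydroxyacetone phosphate, which links it to glucose metabolism, and acyltransferases use glycerol 3-phosphate to build glycerolipids. Caffeine blocks adenosine receptors and, at high concentrations, inhibits cyclic nucleotide phosphodiesterases.

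The sequence before the start of AQP3, GK and AQP7 is shown because AQP3 and GK were both higher at 1000 µM and AQP7, which lies beside AQP3 on chromosome 9, was lower. Each stretch runs 5′ to 3′ on the gene's strand, from RefSeq's promoter table (GRCh38.p14), and ends at the base before the gene's first base in GENCODE 29. Capitals mark matches, on either strand, to the motifs searched.
AQP3, chr9:33447634-33447843, minus strand: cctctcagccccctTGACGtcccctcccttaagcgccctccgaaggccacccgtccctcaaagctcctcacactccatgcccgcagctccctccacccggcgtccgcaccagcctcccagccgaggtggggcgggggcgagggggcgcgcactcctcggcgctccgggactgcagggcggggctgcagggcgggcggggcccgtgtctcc
GK, chrX:30653173-30653358, plus strand: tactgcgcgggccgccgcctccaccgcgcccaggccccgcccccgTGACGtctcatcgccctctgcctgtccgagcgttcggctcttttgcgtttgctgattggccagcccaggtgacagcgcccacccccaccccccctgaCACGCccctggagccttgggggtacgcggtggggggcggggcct
AQP7, chr9:33402683-33402818, minus strand: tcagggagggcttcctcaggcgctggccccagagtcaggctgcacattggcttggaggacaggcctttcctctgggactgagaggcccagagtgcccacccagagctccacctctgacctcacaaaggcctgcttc
The AQP3 stretch is 75.2% G or C, that of GK 73.7% and that of AQP7 63.2%.

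A set of 6 motifs was searched on both strands of the 300 bases around each RefSeq start: TGACGTCA, the cAMP response element; its core TGACG, counted also inside the full element; TGTTTAC, bound by FOXO factors; TGTTTTG, the insulin response sequence; GCGTG, bound by the aryl hydrocarbon receptor; and the DR1 element, a direct repeat bound by nuclear receptors. AQP3 had 1 TGACG, whose first base lay 236 bases before the start. GK had a TGACG at 205 bases before the start and another at 38 bases after it, and 1 GCGTG, on the opposite strand, at 108 bases before the start. AQP7 had no match to the 6 motifs. AQP9, which was not detected here, has 2 RefSeq starts, and the windows overlap and share 1 TGACG, the same site, which lay 24 bases after one start and 189 bases before the other. The window of the second start also held a TGTTTTG, a motif found in 4.92% of promoters. The table was matched by symbol for these 4 genes and not for AQP11 and GPD1. Of 35116 promoters of the same length, 24.6% held TGACG and 36.5% held GCGTG. The full TGACGTCA, held by 1.85% of promoters, had no match in the windows of AQP3, GK and AQP7. Factor binding was not measured in these libraries.

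The libraries held 23502519 to 44815552 counts each, and 17951 features passed the filter on low counts, among them 5 of the 6 genes (all but AQP9). Levels are given in CPM, the usual scaling of read counts to library size, here with TMM factors, and differences as log2 differences with their standard error (SE) from 1 edgeR fit over the 21 libraries. Libraries of 1 dose could differ in their 13 mitochondrial mRNAs, and average-linkage clustering on these split the libraries into 3 sets, with a silhouette of 0.571 on average. Log2 counts were first centred within each library, so the sets rest on the relative levels of these mRNAs, not on their share of counts. Set A (11 libraries) is the controls, the 0.01 and 0.1 µM groups and the first 2 replicates of 1 µM, with 9.93% to 14.2% of counts from mitochondrial mRNAs. Set B (7 libraries) is the last replicate of 1 µM, the whole 10 µM group, replicate 2 of 100 µM and the first 2 replicates of 1000 µM, with 4.70% to 4.93%. Set C (3 libraries) is the remaining replicates 1 and 3 of 100 µM and replicate 3 of 1000 µM, with 11.7% to 12.8%. What the sets stem from is not given in the labels. For the 5 genes past the filter, values at 1000 µM are therefore given across all libraries, within sets, and with the set as a term in the fit. Other values are across all libraries unless a set or the set term is named.

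AQP3 stood out at the highest dose. Its level was 1.41, 1.25 and 1.19 CPM in the 3 control libraries (1.28 ± 0.112 CPM, SD, n = 3) and 31.8, 33.7 and 38.6 CPM in the 3 libraries at 1000 µM (34.7 ± 3.49 CPM). The 1000 µM libraries lay far above every other library, and the ratio of means to control was 27.1. In counts, AQP3 had 1246, 951 and 930 at 1000 µM against 30 to 71 in each of the 18 other libraries. The log2 difference from control was 4.75 ± 0.174 (SE).

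Below 1000 µM no step in AQP3 was visible. Its 3 libraries held 1.87, 1.36 and 1.69 CPM at 0.01 µM, 1.45, 1.28 and 1.76 CPM at 0.1 µM, and 1.39, 1.66 and 1.47 CPM at 1 µM. At 10 µM they held 0.874, 1.41 and 1.28 CPM, and at 100 µM 1.35, 1.51 and 1.76 CPM (1.54 ± 0.209 CPM). Every one of these 5 groups overlapped the control libraries. Ordered by mean, the groups ran 10 µM, control, 0.1, 1, 100, 0.01 and 1000 µM, and only the last step separated neighbours without overlap. Between 100 and 1000 µM the log2 difference was 4.49 ± 0.172 (SE), a ratio of means of 22.5.

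AQP7, the channel that lets glycerol leave fat cells, was lower at both 100 and 1000 µM. Control libraries held 6.42, 6.98 and 6.60 CPM (6.67 ± 0.290 CPM). The 100 µM libraries held 3.64, 4.46 and 3.44 CPM (3.84 ± 0.538 CPM) and the 1000 µM libraries 4.80, 4.25 and 3.23 CPM (4.09 ± 0.793 CPM). Both groups lay wholly below the controls, at 0.577 and 0.614 of the control mean. The log2 differences were -0.78 ± 0.148 (SE) and -0.69 ± 0.147.

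At lower doses AQP7 overlapped the controls. The means were 6.96 ± 0.891 CPM at 0.01 µM, 7.39 ± 0.799 CPM at 0.1 µM, 7.27 ± 0.737 CPM at 1 µM and 7.03 ± 0.479 CPM at 10 µM. The order of means was 100, 1000 µM, control, 0.01, 10, 1 and 0.1 µM, and only the step from 1000 µM to control was free of overlap. Unlike AQP3, AQP7 differed little between 100 and 1000 µM, with a log2 difference of 0.09 ± 0.151 (SE).

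AQP11, the intracellular aquaporin, was lower at 1000 µM and not at 100 µM. Its 3 libraries held 10.3, 9.89 and 10.2 CPM in control (10.1 ± 0.221 CPM) and 5.64, 6.24 and 7.17 CPM at 1000 µM (6.35 ± 0.773 CPM). These groups did not overlap, and the ratio of means was 0.627. At 100 µM the libraries held 11.7, 10.4 and 11.9 CPM (11.3 ± 0.809 CPM), and at 10 µM 12.4, 11.5 and 10.7 CPM (11.5 ± 0.860 CPM), both wholly above the controls. In the fit with a term for library set, the log2 differences from control at these 2 doses changed sign, from 0.16 to -0.22 at 100 µM and from 0.19 to -0.05 at 10 µM. At 0.1 µM the libraries held 9.20, 8.31 and 8.54 CPM, wholly below the controls.

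The log2 difference of AQP11 between 1000 µM and control was -0.68 ± 0.108 (SE). Between 1000 and 100 µM it was -0.84 ± 0.108. At 0.01 and 1 µM AQP11 held 9.98 ± 0.797 and 10.19 ± 1.01 CPM and overlapped the controls. The AQP11 gene overlaps CLNS1A, a chloride channel regulator on the opposite strand, which held 65.1 ± 7.83 CPM in control and 77.5 ± 8.04 CPM at 1000 µM. Use of strand in the counting is not given in the sources used here, so reads of the overlap cannot be told apart.

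AQP9, the main glycerol channel of hepatocytes, was not detectable at this depth. It had 0 counts in 19 of the 21 libraries and 1 count in each of replicate 1 at 0.1 µM and replicate 1 at 1000 µM. A count of 0 allows up to 3 counts, which is 0.0669 to 0.128 CPM of a library's total. The floor reflects counting error alone, because PCR copies of 1 molecule cannot be recognised in these reads. AQP9 entered no fit.

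GK, which phosphorylates glycerol, was higher at 1000 µM than at any other dose. Its libraries held 120.9, 117.1 and 146.9 CPM in control (128.3 ± 16.2 CPM) and 267.7, 278.3 and 229.7 CPM at 1000 µM (258.6 ± 25.6 CPM). All 3 libraries at 1000 µM lay above the other 18, and the ratio of means was 2.02. The log2 difference from control was 1.01 ± 0.0963 (SE).

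The other doses of GK stayed between 104.9 and 135.1 CPM in every library. The means were 111.1 ± 8.43 CPM at 0.01 µM, 113.9 ± 3.02 CPM at 0.1 µM and 120.03 ± 12.2 CPM at 1 µM, then 133.6 ± 1.97 CPM at 10 µM and 124.1 ± 6.01 CPM at 100 µM. The 0.1 µM libraries lay wholly below the controls and the other 4 groups overlapped them. At 10 µM, where all libraries are of set B, the log2 difference from control was 0.06, or -0.18 with the set term. Between 100 and 1000 µM the log2 difference was 1.06 ± 0.0964 (SE), as with AQP3 a step confined, among these doses, to the last interval. An antisense gene, GK-AS1, had 0.784% to 2.3% as many counts as GK in a library and went from 2.20 ± 0.505 CPM in control to 3.64 ± 1.15 CPM at 1000 µM. The GK copies GK3 and GK4P had 9 and 210 counts over all 21 libraries against 98223 for GK.

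GPD1, which interconverts glycerol 3-phosphate and dihydroxyacetone phosphate, had the narrowest range of log2 differences from control among the 5 detected genes, -0.18 to 0.32. It held 63.8, 66.7 and 52.3 CPM in control (60.9 ± 7.62 CPM) and 78.7, 74.8 and 74.8 CPM at 10 µM (76.1 ± 2.28 CPM). The 10 µM libraries lay above all the other groups' libraries, with a log2 difference from control of 0.32 ± 0.0934 (SE), or 0.24 with the library set as a term. At 1000 µM GPD1 held 57.1, 55.3 and 48.5 CPM (53.6 ± 4.58 CPM) and overlapped the controls, with a log2 difference of -0.18 ± 0.0938. At 100 µM it held 54.8, 64.0 and 52.3 CPM (57.0 ± 6.15 CPM), also overlapping. Means at 0.01, 0.1 and 1 µM were 68.8 ± 1.88, 68.2 ± 3.56 and 71.8 ± 2.51 CPM, and only the 1 µM libraries lay wholly above the controls.

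**Figure D1:**
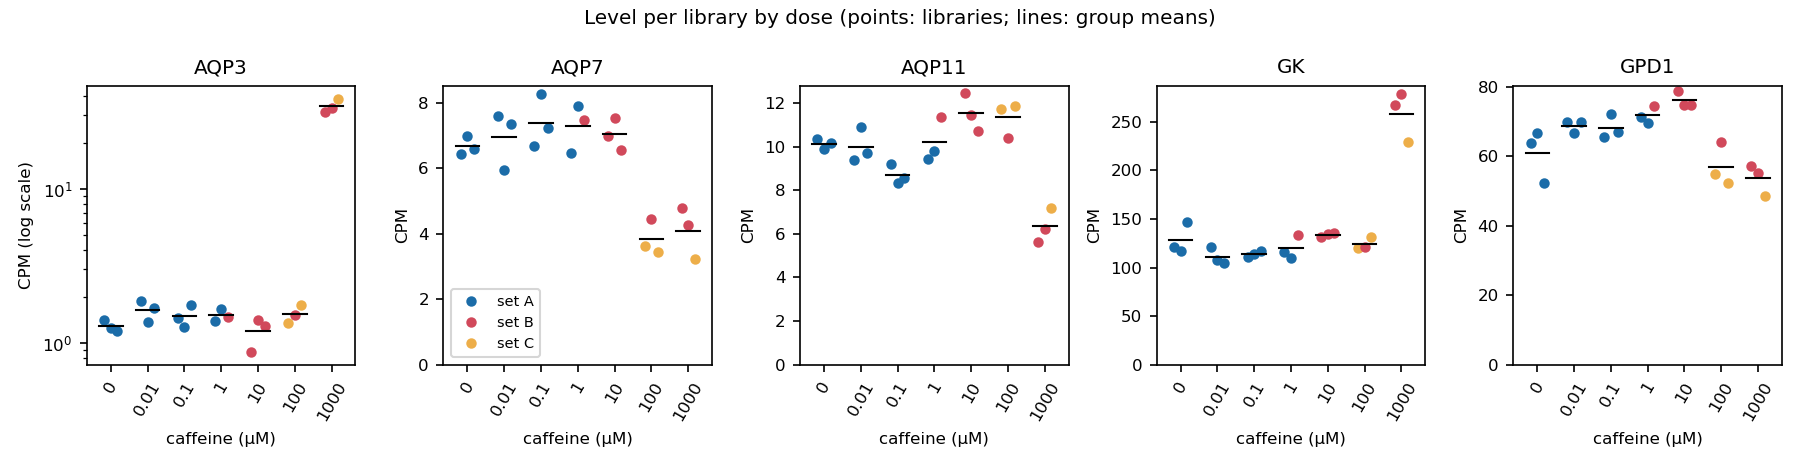
Level of each gene in CPM (y axis, log scale for AQP3, linear from 0 for the others) in each library (points, coloured by library set) by caffeine dose in µM (x axis), with group means as lines. AQP3 lies at 0.874 to 1.87 CPM up to 100 µM and at 31.8 to 38.6 CPM at 1000 µM, while AQP7 is lower from 100 µM and AQP11 is lower at 1000 µM.

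To set the genes against all features, the fit's calls are counted here once. The genes past the threshold (adjusted p of 0.05, edgeR's quasi-likelihood F-test) were 0 of 5 at 0.01, 0.1 and 1 µM, where 0.0279%, 0% and 0.106% of all features passed. They were 1 of 5 at 10 µM (GPD1) against 14.8% of features, 1 of 5 at 100 µM (AQP7) against 46.6%, and 4 of 5 at 1000 µM (all but GPD1) against 57.6%. Between 1000 and 100 µM 3 of 5 passed (AQP3, GK and AQP11) against 44%, and the same 3 did not overlap against 45.1%. With the library set as a term 0 of 5 passed at 10 µM against 0.0279% of features, 0 of 5 at 100 µM against 17.3% and 4 of 5 at 1000 µM against 38%. The genes whose libraries did not overlap the controls were 4 of 5 at 1000 µM against 56.6% of features, and 2 of 5 at 100 µM (AQP7 and AQP11) against 51.1%. At 10 µM they were 2 of 5 (AQP11 and GPD1) against 39.8%, at 1 µM 1 of 5 (GPD1) against 17.3%, at 0.1 µM 2 of 5 (AQP11 and GK) against 19.2%, and at 0.01 µM none against 23.1%. Since these values led to the choice of the genes, the counts are no evidence about them and nothing is read from their share. All 6 contrasts with control share the same 3 control libraries.

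Within the library sets AQP3 and GK were higher, and AQP11 and GPD1 lower, at 1000 µM in each of the 3 contrasts with 10 or 100 µM that could be formed, without overlap. In set B, 1000 µM (2 libraries) minus 10 µM (3 libraries) gave log2 differences of 4.74 for AQP3, 1.03 for GK and -0.95 for AQP11. In set B, 1000 µM minus 100 µM (1 library) gave 4.38, 1.17 and -0.80, and in set C, 1000 µM (1 library) minus 100 µM (2 libraries) gave 4.59, 0.87 and -0.71. Sets B and C contain no control library.

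For AQP7 the differences between 1000 and 100 µM within sets were smaller than those of either dose from 10 µM in set B. In set B its log2 difference was -0.65 for 100 minus 10 µM and -0.63 for 1000 minus 10 µM. Between 1000 and 100 µM it was 0.02 in set B, with overlap, and -0.13 in set C, where the 1 library at 1000 µM (3.23 CPM) lay below both at 100 µM (3.64 and 3.44 CPM). With the set as a term its difference from control was -0.60 at 100 µM and -0.64 at 1000 µM. GPD1 had -0.44 for 1000 minus 10 µM in set B and -0.25 for 100 minus 10 µM. For 1000 minus 100 µM it had -0.19 in set B and -0.14 in set C, though over all libraries the 2 doses overlapped.

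**Figure D2:**
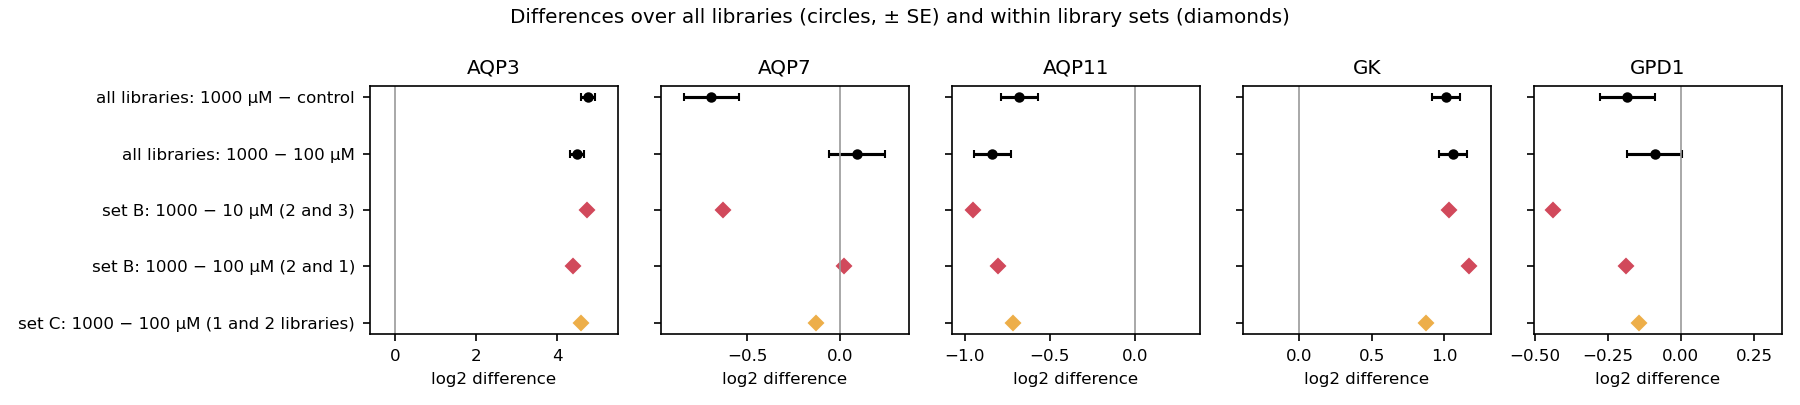
Log2 difference (x axis) of 5 genes over all libraries (black circles with SE) and within library sets B and C (diamonds), 1 contrast per row. AQP3, GK, AQP11 and GPD1 keep their sign in every row, and AQP7 is near 0 wherever 1000 µM is set against 100 µM (0.09, 0.02 and -0.13).

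Fitted with a set term, the differences from control at 1000 µM were 4.74 for AQP3, 0.80 for GK, -0.99 for AQP11, -0.64 for AQP7 and -0.19 for GPD1. The set terms of the 5 genes, fitted beside the dose groups, were tested together with edgeR's quasi-likelihood test, a comparison the choice of genes did not use. No dose holds libraries of both sets A and C, and sets A and B meet at 1 µM alone, where set B has 1 library. None of the 5 reached an adjusted p under 0.05, against 29.6% of all features, and 3 had an unadjusted p under 0.05. The adjusted p over all features was 0.0709 for AQP11, 0.0739 for GPD1, 0.078 for AQP7, 0.218 for GK and 0.639 for AQP3. The estimates for set B minus set A were 0.24 for AQP11, 0.24 for GK, 0.08 for GPD1, 0.06 for AQP7 and -0.05 for AQP3 on the log2 scale. For set C minus set A they were 0.46 for AQP11, 0.14 for GK, -0.16 for GPD1, -0.35 for AQP7 and 0.12 for AQP3. Without replicate 3 of control, 2 of the 5 passed.

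Levels of different genes were compared per kb of exon, with exon lengths from GENCODE 29. Among 13 listed aquaporins, AQP11 was highest in control at 4.23 ± 0.0920 CPM per kb, followed by AQP8, a channel for water and ammonia, at 1.61 ± 0.190, AQP7 at 1.27 ± 0.0552 and AQP3 at 0.434 ± 0.0381. At 1000 µM AQP3 was first at 11.8 ± 1.18 CPM per kb, followed by AQP11 at 2.65 ± 0.323, AQP8 at 1.60 ± 0.394 and AQP7 at 0.779 ± 0.151. AQP3 thus moved from rank 4 in control and at 100 µM to rank 1 at 1000 µM, where its 3 libraries lay above those of AQP11. AQP10, the remaining aquaglyceroporin, stayed at 0.151 ± 0.0201 CPM per kb in control and 0.147 ± 0.0370 at 1000 µM.

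The 2 enzymes were well above the channels per kb in control. GK went from 23.9 ± 3.02 CPM per kb in control to 48.3 ± 4.78 at 1000 µM. GPD1 had 15.3 ± 1.91 and 13.4 ± 1.15 CPM per kb, and its relative GPD1L, a second cytosolic glycerol 3-phosphate dehydrogenase, 12.6 ± 0.613 and 6.58 ± 0.604. GPD1 and GPD1L were thus near each other in control and apart at 1000 µM. The mitochondrial dehydrogenase GPD2 had 4 counts over all 21 libraries, too few for a level.

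**Figure D3:**
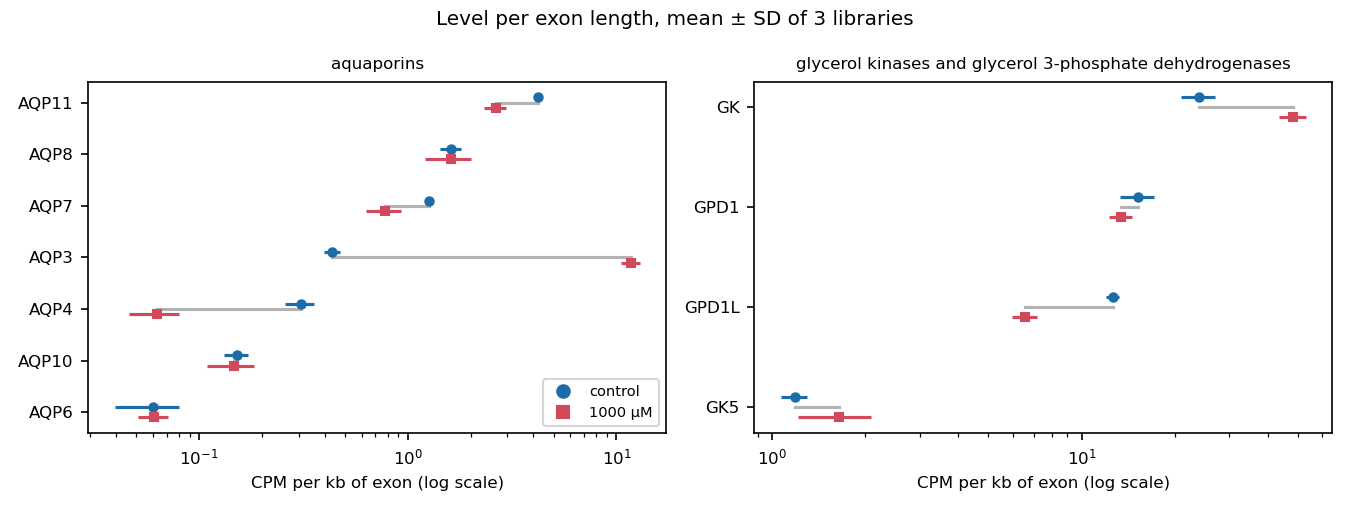
Mean level in CPM per kb of exon (x axis, log scale, bars SD, n = 3) of the tested aquaporins (left) and of glycerol kinases and glycerol 3-phosphate dehydrogenases (right), in control (circles) and at 1000 µM (squares). AQP3 passes from 0.434 to 11.8 CPM per kb, above AQP11 at 2.65.

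Around these 6 genes, 58 further genes of the same pathway were taken in 6 lists by function, of which 56 were listed and 43 passed the filter. AQP2 and GK2 were not analysed here. In edgeR's quasi-likelihood F-test none of the 43 reached an adjusted p under 0.05 at 0.01, 0.1 or 1 µM, where 5, 1 and 6 had an unadjusted p under 0.05, against 2698, 1701 and 2811 of the 17951 features tested. DESeq2's Wald test called 1, 0 and 1 of the 43, against 394, 51 and 426 of all features, of which 6267, 705 and 6267 were given no adjusted p. At 10 µM 8 passed, 7 higher and 1 lower (18.6%, against 14.8% of all features). This count was 3 to 5 without any 1 library of control or 10 µM and 0 with the library set as a term. At 100 µM 18 passed (41.9%, against 46.6% of all features), 10 of them higher, and 11 did so under the set term, where 17.3% of all features passed. At 1000 µM 33 passed (76.7%, against 57.6% of all features), of which 15 were higher and 18 lower, and 27 did so under the set term, where 38% of all features passed. The counts by list below are to be set against the same 57.6%. The median log2 difference of the 43 at 1000 µM was -0.01, as over all features tested. Between 1000 and 100 µM 27 of 43 passed, 11 higher and 16 lower (62.8%, against 44% of all features).

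Of the other aquaporins, 4 were tested and 1 passed at 1000 µM. AQP4, the water channel of astrocytes, fell from 1.85 ± 0.292 to 0.378 ± 0.103 CPM, a log2 difference of -2.28 ± 0.273 (adjusted p 7.78e-07). It was already lower at 100 µM, at 0.841 ± 0.257 CPM and a log2 difference of -1.09 (adjusted p 0.00138). AQP6 was called lower in 1000 against 100 µM (-1.15, adjusted p 0.0157), at levels under 1 CPM in every library of both groups. Its mean at 1000 µM (0.312 ± 0.0526 CPM) was near that of control (0.307 ± 0.106 CPM), and 100 µM stood higher (0.697 ± 0.207 CPM). AQP8 and AQP10 had log2 differences of -0.01 and -0.03 at 1000 µM and did not pass.

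Of the enzymes that handle glycerol phosphate and its relatives, all 5 tested passed at 1000 µM, 4 lower and 1 higher, with a median of -0.94. GPD1L fell from 60.7 ± 2.94 to 31.6 ± 2.90 CPM (log2 -0.94 ± 0.0989, adjusted p 1.44e-07) and was at 32.7 ± 1.64 CPM at 100 µM. GLYCTK, which phosphorylates glycerate, fell by 1.39 on the log2 scale (adjusted p 2.55e-07). PGP, a phosphatase that can split glycerol 3-phosphate, fell from 18.03 ± 1.19 to 7.55 ± 2.31 CPM at 1000 µM (log2 -1.27, adjusted p 3.36e-06). Across all libraries PGP was higher at 100 µM, at 27.5 ± 0.922 CPM (log2 0.61, adjusted p 0.00467). With the set term 0 of the 5 were called higher at 100 µM. For PGP, 100 minus 10 µM gave 0.29 in set B (1 and 3 libraries). At 1 µM, set B minus set A gave 0.35 (1 and 2 libraries). TKFC, which phosphorylates dihydroxyacetone, fell by 0.62 (adjusted p 0.000694). The gene that rose, named after its value was seen, was GK5, a relative of GK, at 0.49 ± 0.169 (adjusted p 0.0189), or 0.34 with the set term (adjusted p 0.178).

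Of the list of acylglycerol lipases and their cofactors, which also holds PLIN2, 5 of 7 tested passed at 1000 µM, 3 higher and 2 lower. LIPC, the hepatic lipase, fell from 68.2 ± 2.99 CPM in control to 13.9 ± 0.585 CPM at 100 µM and 8.54 ± 2.14 CPM at 1000 µM. Its log2 differences were -2.30 ± 0.114 (adjusted p 2.49e-11) and -3.01 ± 0.118 (adjusted p 2.55e-13), and at 10 µM -0.47 ± 0.107 (adjusted p 0.00933). LIPC was the 1 gene of the lists called lower at 10 µM, where all libraries are of set B, and with the set term it was not called. Within sets, LIPC had -0.18 for 10 minus 1 µM in set B (3 and 1 libraries). In set A it had -0.15 for 1 µM minus control (2 and 3 libraries). PNPLA3, a lipid droplet hydrolase, fell from 150.004 ± 10.3 to 31.2 ± 3.72 CPM (log2 -2.26, adjusted p 3.45e-11). ABHD5, the activator of adipose triglyceride lipase, rose from 7.92 ± 1.11 to 23.35 ± 1.56 CPM (log2 1.56, adjusted p 3.31e-10), and PLIN2, a lipid droplet coat protein, rose by 0.44 (adjusted p 0.000145). The lipase itself, PNPLA2, had -0.35 ± 0.251 and did not pass. It held 93.8, 92.6 and 63.2 CPM in control and 45.9, 47.1 and 103.9 CPM at 1000 µM, so the libraries of set B lay below all controls and that of set C above them. LIPE and G0S2 had 0 counts in all 21 libraries.

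Of the genes that use glycerol 3-phosphate for glycerolipid synthesis, all 12 tested passed at 1000 µM, 6 higher and 6 lower. GPAT3, which adds the first acyl chain, rose from 13.2 ± 0.208 to 53.6 ± 4.79 CPM (log2 2.02 ± 0.0859, adjusted p 6.28e-13), and was at 12.4 ± 0.974 CPM at 100 µM. LPIN2, a phosphatidate phosphatase, rose by 1.16 (adjusted p 1.2e-08). AGPAT2, which adds the next acyl chain, fell from 43.7 ± 5.08 to 17.6 ± 3.12 CPM (log2 -1.32, adjusted p 1.17e-07). DGAT2, which makes triglyceride, fell from 61.5 ± 5.67 to 30.3 ± 1.20 CPM (log2 -1.02, adjusted p 2.96e-09). Thus the list held rises and falls in equal number and its median was 0.10.

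Of the genes on the way from dihydroxyacetone phosphate to glucose, 5 of 7 tested passed at 1000 µM, 1 higher and 4 lower. G6PC1, the catalytic subunit of glucose 6-phosphatase, rose from 0.487 ± 0.115 to 8.52 ± 0.861 CPM (log2 4.14 ± 0.223, adjusted p 1.55e-11). Like AQP3 it was near control at 100 µM, at 0.479 ± 0.0903 CPM. TPI1, GPI and ALDOA, enzymes shared with glycolysis, fell by 0.85, 0.89 and 0.61 on the log2 scale (adjusted p 2.34e-08, 3.54e-07 and 0.00452). The fall of ALDOA differed by set, with 512.7 CPM in set B (2 libraries) and 887.1 CPM in set C (1 library) at 1000 µM. Its control mean was 976.1 CPM. SLC37A4, the glucose 6-phosphate transporter, named after its value was seen, fell by 0.22 (adjusted p 0.0347), or 0.28 with the set term (adjusted p 0.14).

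Of 8 factors known to act on channel or kinase genes, 5 passed at 1000 µM, 4 higher and 1 lower. PPARGC1A, a coactivator of fasting genes, rose from 17.97 ± 1.53 to 71.8 ± 7.95 CPM (log2 1.9999 ± 0.122, adjusted p 7.82e-11) and was at 16.8 ± 1.15 CPM at 100 µM. CREB1, the cAMP response element binding protein, rose by 1.10 (adjusted p 1.04e-08), and was already at 0.83 at 100 µM (adjusted p 9.77e-07). FOXO3 rose by 0.90 (adjusted p 2.6e-07) and PPARG by 0.39 (adjusted p 0.00131), the latter 0.15 with the set term (adjusted p 0.452). FOXA2, named after its value was seen, had a log2 difference of -0.59 (adjusted p 0.0431), or -0.22 with the set term (adjusted p 0.611). Its libraries held 55.7, 67.3 and 56.2 CPM in control and 29.1, 30.9 and 59.2 CPM at 1000 µM, so the library of set C lay within the control range. Within sets, 1000 minus 100 µM gave -0.43 in set B and 0.27 in set C. PPARA, FOXO1 and HNF4A did not pass, with log2 differences of 0.08, 0.16 and 0.16.

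**Figure D4:**
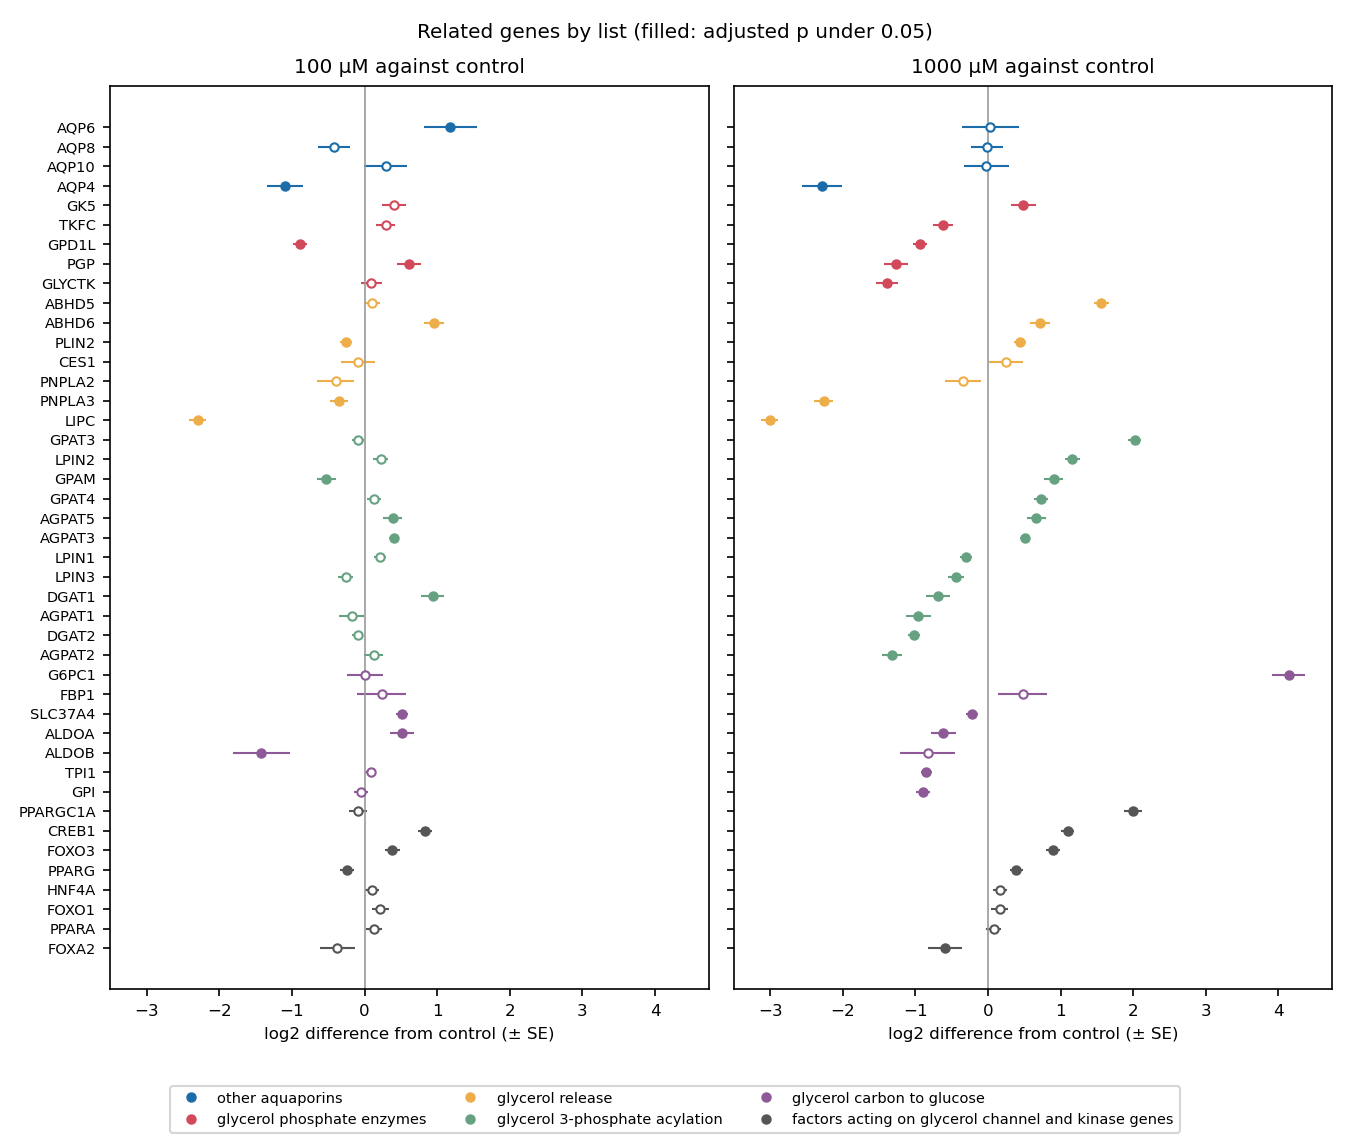
Log2 difference from control with SE (x axis) of the 43 tested related genes (rows, coloured by list) at 100 µM (left) and 1000 µM (right), filled where edgeR gave an adjusted p under 0.05. At 1000 µM 33 are filled against 18 at 100 µM, with G6PC1 at 4.14 and LIPC at -3.01 as the outermost.

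The genes whose pattern was most like that of each tested gene were found by Pearson's r of log2 CPM over the 21 libraries, among 10860 features of at least 5 CPM. These libraries share doses and library sets, so r describes likeness alone. For AQP3 they were CSGALNACT1, CSGALNACT2, IGFBP1, SPIRE1 and RBM24, each at r = 0.98. Without the 1000 µM libraries r was 0.15, 0.08, 0.33, -0.05 and 0.42 over 18 libraries, so the likeness rests on that dose. IGFBP1, a liver-secreted binding protein of insulin-like growth factors, went from 103.9 ± 9.52 CPM in control to 219.6 CPM at 100 µM and 3309 ± 654.5 CPM at 1000 µM.

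For GK the nearest patterns were SLC7A11, the cystine transporter, GCLM, a subunit of the enzyme that begins glutathione synthesis, and SLC38A1, a glutamine transporter, each at r = 0.98 and at 0.81, 0.79 and 0.75 without 1000 µM. For AQP7 they were YKT6 (0.96), NUDT2 (0.96) and UQCC1 (0.95), at 0.93, 0.94 and 0.94 without 1000 µM. For AQP11 they were B4GAT1 (0.93), PGP (0.93) and SNRNP25 (0.92), at 0.73, 0.73 and 0.67, and for GPD1 SLC39A5 (0.95), RETREG2 (0.94) and LCN15 (0.94), at 0.92, 0.93 and 0.91. The likeness of AQP7 and GPD1 to their nearest genes thus held without the highest dose.

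The genes beside AQP3 on chromosome 9 did not show a rise of its size. AQP3 lies at chr9:33441154-33447633, minus strand, and AQP7 at chr9:33383179-33402682, minus strand, 38.47 kb away. NOL6, a nucleolar protein 13.81 kb away on the other side, had a log2 difference of 0.17 ± 0.113 at 1000 µM (edgeR adjusted p 0.198). NFX1, 70 kb away, had 0.19 (adjusted p 0.0461), or 0.41 with the set term (adjusted p 0.013). CHMP5, 159.1 kb away, had -0.17 (adjusted p 0.272), and the set term turned it to 0.35 (adjusted p 0.0605). UBE2R2, 369.9 kb away, had 0.26 (adjusted p 0.117), and UBAP2, 474.1 kb away, -0.59 (adjusted p 0.00672), or -0.21 with the set term (adjusted p 0.388). The other genes lie at chr15:58138169-58185911 (AQP9, plus strand), chr11:77589391-77610355 (AQP11, plus), chrX:30653359-30731456 (GK, plus) and chr12:50103819-50111319 (GPD1, plus), all on GRCh38 in GENCODE 29.

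Markers of the labelled cell type were present in every library. The summed level of 7 hepatocyte genes was 26319 to 33677 CPM in control and 14550 to 16467 CPM at 1000 µM. Most of this sum came from ALB, SERPINA1, AFP and TF, and ALB went from 12469 ± 2556 to 6334 ± 221.1 CPM. HNF4A and TTR did not follow it, at 253.7 ± 43.7 and 92.1 ± 6.94 CPM in control and 284.1 ± 14.7 and 127.2 ± 19.1 CPM at 1000 µM. In bulk RNA, fewer cells of a type and less RNA per cell cannot be told apart. Of 5 keratinocyte markers, cells known for AQP3, 4 were under 1 CPM in all libraries and KRT5, KRT14 and KRT1 were at 0 throughout. Their sum was 1.25 to 2.11 CPM in control and 1.59 to 4.89 CPM at 1000 µM. The 2 listed kidney collecting duct markers were under 1 CPM in every library. Of 5 fibroblast markers all but PDGFRB were under 1 CPM everywhere, and the sum was 3.18 to 3.79 CPM in control and 18.2 to 23.5 CPM at 1000 µM. Of 3 listed adipocyte markers, cells known for AQP7, ADIPOQ and PLIN1 were under 1 CPM everywhere, and the sum, nearly all from CIDEC, was 27.4 to 38.1 CPM in control and 6.48 to 8.75 CPM at 1000 µM. The immune list, nearly all from CD68, summed to 40.9 to 55.1 CPM in control and 18.2 to 46.0 CPM at 1000 µM, with PTPRC and CD3E under 1 CPM, and the endothelial list stayed at or under 0.283 CPM in every library. The part of these shifts in the results was not tested.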

How the data were processed

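RNA from 21 HepG2 libraries, 7 groups of 3 by the dose in the titles, was counted by the authors, and the deposited values are raw read counts per feature, whole numbers without normalization. HISAT2, DESeq2 and GRCh38 are named, without their roles, per the submitters' processing notes; the counting tool, annotation and use of strand are not given in the sources used here. Another 21 sample columns in the table stayed unused. Symbols were matched by Ensembl identifier to GENCODE 29, whose annotation may differ from the authors', for 32255 of 37637 features; 4700 were unannotated loci. No replicate pair agreed within counting noise (chi-square per feature of at least 3.59 over 21 pairs).

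Counts were filtered with filterByExpr, given TMM factors and fitted in edgeR 4.0.16 under R 4.3.3, with the robust quasi-likelihood F-test and 1 mean per group over 21 libraries, 2-sided, Benjamini-Hochberg adjusted over 17951 features at 0.05. The same fit with library set as a term tested the sets. CPM used TMM-scaled library sizes and log2 CPM a prior count of 2. The fits were tested on simulated data. Alternatives were DESeq2 1.42.0 (size factors, Wald test), limma-voom (limma 3.58.1), a filter at a 5 CPM mean or none, fits of each dose with its controls alone, a replicate block, the library set, a prior count of 0.5 and each library left out. Named were all 6 genes, up to 4 called genes per list by smallest p at 1000 µM or in 1000 against 100 µM, the 5 nearest patterns of AQP3 and 3 of each other gene, and the 3 nearest tested genes on each side of AQP3. The genes and lists were chosen with earlier results of these data known.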

Additional observations from a re-analysis of the deposited data

How the results depend on the processing

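The differences of the 5 tested genes from control at 1000 µM kept their sign under every alternative run, at 4.73 to 4.76 for AQP3, -0.72 to -0.64 for AQP7 and -0.19 to -0.17 for GPD1 on the log2 scale. The library set as a term moved AQP11 to -0.99 and GK to 0.80 there, with the same sign. It turned the sign of GK at 10 µM (0.06 to -0.18), of AQP11 at 1 µM (0.01 to -0.07), 10 µM (0.19 to -0.05) and 100 µM (0.16 to -0.22), and of AQP7 between 1000 and 100 µM (0.09 to -0.04). With 1 library left out the ranges at 1000 µM were 4.67 to 4.82 for AQP3, -0.83 to -0.56 for AQP7, -0.78 to -0.60 for AQP11, 0.95 to 1.12 for GK and -0.28 to -0.12 for GPD1.

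The count of related genes called was 1 at 0.01 µM and 1 at 1 µM by DESeq2's Wald test, against 0 by edgeR. With the library set as a term it was 0 at 10 µM and 11 at 100 µM. With 1 library left out it stayed at 0 for 0.01, 0.1 and 1 µM. For 10 µM it was then 3 to 12, for 100 µM 15 to 21, for 1000 µM 30 to 34 and for 1000 against 100 µM 25 to 31. At 10 µM it was 5, 5 and 4 without control replicates 1, 2 and 3, and 3, 3 and 4 without 10 µM replicates 1, 2 and 3. The count of the 5 genes differing between sets was 1 with a mean of at least 5 CPM, and 0 to 2 with 1 library left out. Without replicate 3 at 1 µM the set terms could not be fitted.

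With the replicate block the counts were 0, 0, 0, 8, 18 and 32 at rising doses and 27 for 1000 against 100 µM. Same-numbered replicates correlated at -0.108 to 0.152, above 0.1 in 1 of 21 pairs of groups, so replicate numbers were not read as pairs. Depth limits AQP9, GPD2 and other genes near 0 counts. Sets and doses overlap, and no control lies outside set A, so their parts cannot be fully told apart. The cause of the moves was not tested.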
